A study of Danio rerio with 17 samples.

Results

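The comparison described here is between the brains of adult zebrafish taken 168 h and 48 h after a single dose of domoic acid. It used 6 of the 17 arrays of the series, chosen by their titles: 3 arrays of domoic acid-treated brains at 168 h and 3 at 48 h. All fish were of the AB strain, were injected at 1 year of age, and received 10 µL into the coelomic cavity, either of domoic acid at 1.1 µg per g body weight or of the PBS vehicle. Each array carried RNA from its own pool of 3 to 4 whole brains, so an array averages over fish and over every brain region and cell type. The vehicle-injected groups set beside the comparison had 3 arrays at 168 h and 2 at 48 h, and the 24 h groups had 3 arrays each.

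Domoic acid is an excitatory amino acid made by marine diatoms of the genus Pseudo-nitzschia and is the toxin of amnesic shellfish poisoning. It resembles glutamate and activates glutamate receptors of the kainate and AMPA classes, which lets sodium and calcium into neurons and can cause seizures and excitotoxic injury. Brain tissue that has been overexcited draws on energy metabolism, stress hormone signalling and its resident immune cells, the microglia. The genes below are grouped by these and other functions, in lists chosen with earlier results of these data known.

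Levels are the deposited log2 values of the probe sets (groups of short probes for the same transcript on the Affymetrix zebrafish array), and a difference of 1 on this scale is a 2-fold change. Differences are 168 h minus 48 h with their standard error (SE), from 1 limma fit of all 17 arrays, and a probe set passed the test at a Benjamini-Hochberg adjusted p under 0.05 over all 15502 probe sets that are not array controls. The 6 arrays resembled each other closely, with pairwise correlations of 0.990 to 0.997 across probe sets. The mean level of the 18 hybridisation spike-in probe sets did separate the times, at 9.27 to 9.40 on the 48 h arrays and 9.44 to 10.0 on the 168 h arrays; with it in the fit 136 probe sets passed, of which 111 were among the 161 described next. The 3′ minus 5′ difference of GAPDH, a sign of RNA integrity, overlapped between the times (3.02 to 3.44 at 48 h, 3.14 to 3.41 at 168 h). The arrays carried the transcripts of a brain: on the 6 arrays the neuronal snap25a lay at 12.6 to 13.2 and the radial glial aromatase cyp19a1b at 11.9 to 12.4.

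Of the 15502 probe sets, 161 passed the test (1.04%), with 50 higher at 168 h (0.323%) and 111 lower (0.716%). The unadjusted p was under 0.05 for 1818 (11.7%), 588 higher and 1230 lower; by gene, 3.79% were higher and 9.95% lower at that level. With 1 probe set per gene, 125 of 8793 genes passed (1.42%), with 37 higher (0.421%) and 88 lower (1.0%). The changes that passed ranged from 1.30-fold to 8.58-fold with a median of 1.66-fold, and 38 probe sets differed at least 2-fold. None of the 161 had overlapping arrays between the times, against 23.4% without overlap among all probe sets. When the normalization was repeated by quantiles, 42.2% of the calls were higher at 168 h, and by cyclic loess 43.1%, against 31.1% here.

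Several genes of cholesterol synthesis were higher at 168 h. Of 21 measured genes of sterol and fatty acid synthesis, 5 rose and none fell, and these 5 all belong to or control the sterol branch. That is 23.8% of the list against 0.421% of all genes called higher. In all 18 of the 21 differences were positive, and the median was 0.11 against -0.02 over all genes. The mean level over the list was 6.97 to 7.01 on the 48 h arrays and 7.29 to 7.40 on the 168 h arrays, without overlap. Such a separation was not particular to lists with calls. Complex I genes, with no call, separated too (10.01 to 10.04 at 48 h, 9.71 to 9.92 at 168 h). Those of the cell cycle overlapped (5.87 to 5.95 and 5.87 to 5.94). Cells raise these genes together, through the SREBP transcription factors, when sterols in their membranes run short.

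The gene hmgcs1, which encodes the HMG-CoA synthase at the entry to the pathway, had levels of 7.57, 7.68 and 7.49 on the 48 h arrays and 9.76, 9.95 and 9.73 on the 168 h arrays. Every 168 h array lay more than 2 log2 units above every 48 h array. The difference of 2.23 ± 0.19 (SE, 3 against 3 arrays), or 4.70-fold, had the smallest limma adjusted p of all probe sets, 6.09e-05. For insig1, which encodes a membrane protein that holds SREBP back in the endoplasmic reticulum, the levels were 9.22, 9.03 and 8.88 at 48 h and 10.2, 10.2 and 10.4 at 168 h, a difference of 1.23 ± 0.18 (limma adjusted p = 0.00493). Its other probe sets rose as well, by 0.90 and 1.25.

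Further down the pathway, fdft1, the squalene synthase, went from 6.36, 6.41 and 6.27 at 48 h to 7.61, 7.40 and 7.48 at 168 h, a rise of 1.15 ± 0.22 (limma adjusted p = 0.0181). In later steps msmo1, a methylsterol oxidase, rose by 0.88 ± 0.19, and dhcr7, the reductase that makes cholesterol itself, by 0.51 ± 0.11. The farnesyl diphosphate synthase gene fdps did not pass, at 0.63 ± 0.22 (limma adjusted p = 0.238), and acaca, the acetyl-CoA carboxylase at the entry to fatty acid synthesis, was at -0.34 ± 0.14 (limma adjusted p = 0.336). Chosen after its values were seen, mid1ip1b, which encodes an activator of acetyl-CoA carboxylase, rose by 0.82 ± 0.15. On no list, lipg, an endothelial lipase gene, rose by 1.02 ± 0.17.

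These sterol genes also differed between the times in the vehicle-injected fish. In control brains hmgcs1 lay at 8.22 and 7.74 at 48 h and at 9.22, 9.66 and 9.85 at 168 h, a rise of 1.59 ± 0.21 that passed the test (limma adjusted p = 0.0107). The other 4 called sterol genes differed by 0.39 to 0.84 in control brains, in the same direction, without passing. The list median was 0.22 in control brains, and the test of the difference between treatments gave no adjusted p under 0.05 for any of them. Leaving out any 1 of the 6 arrays left 2 or 3 called sterol genes.

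Genes of fatty acid oxidation, the mitochondrial breakdown of fatty acids to acetyl-CoA, made up the largest group that fell by 168 h. Of 26 measured genes of fatty acid oxidation and ketone metabolism 24 had a negative difference, 8 fell and none rose. That is 30.8% of the list against 1.42% of all genes, and the list median was -0.40 against -0.02. The genes that fell cover the carnitine shuttle, which carries fatty acids into mitochondria, and the later steps of the spiral that shortens them.

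In the shuttle, cpt1ab, a carnitine palmitoyltransferase 1 gene and the gate of the pathway, had levels of 6.78, 6.65 and 6.49 at 48 h and 5.35, 5.48 and 5.39 at 168 h. The fall of 1.23 ± 0.17 on the log2 scale, or 2.35-fold, passed the test (limma adjusted p = 0.00248), and the times were widely separated. Its partner on the inner membrane, cpt2, was at 8.89, 8.90 and 8.95 and then at 8.39, 8.16 and 8.41, a difference of -0.59 ± 0.11. A second probe set of cpt2, at 5.46 to 5.75 on the 6 arrays and near the level of the blank probe sets (4.94 to 5.11), showed no difference (-0.02 ± 0.13). The 168 h levels of cpt1ab were near this blank level as well. The carnitine-acylcarnitine carrier gene slc25a20 fell by 0.48 ± 0.11.

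In the oxidation spiral, eci1, an enoyl-CoA isomerase gene needed for unsaturated fatty acids, fell from 8.67, 8.73 and 8.68 to 7.84, 7.42 and 7.58. The 3 arrays of 48 h were nearly level with each other and all lay above those of 168 h, with a difference of -1.08 ± 0.13 (limma adjusted p = 0.00123). Both subunits of the trifunctional protein were lower: hadhb went from 9.53, 9.37 and 9.35 to 8.59, 8.69 and 8.89, a fall of 0.69 ± 0.10 (limma adjusted p = 0.00506), and hadhaa fell by 0.63 ± 0.14. The thiolase gene acaa2 fell by 0.64 ± 0.10 and the hydroxyacyl-CoA dehydrogenase gene hadh by 0.53 ± 0.11. The members slc25a20 and hadhaa lay outside the rule for named genes and are given because they complete the 8. Leaving out any 1 of the 6 arrays left 4 or 5 calls on the list, and leaving out the first domoic acid array of 24 h gave 10. Next in order of p was etfdh, which hands electrons from fatty acid oxidation to the respiratory chain, at -0.43 ± 0.10 (limma adjusted p = 0.0606).

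In control brains the same genes showed small differences between the times. The list median was -0.11, no member passed the test, and hadhb lay at 8.68 and 8.94 at 48 h and at 8.72, 8.99 and 8.93 at 168 h, a difference of 0.07 ± 0.12. For cpt1ab the control levels were 5.52 and 6.06 at 48 h and 5.52, 5.70 and 5.80 at 168 h, so that the control groups overlapped and the domoic acid arrays of 48 h lay above all 5 of them. The treatments differed in their time difference by -0.76 ± 0.16 for hadhb (unadjusted p = 0.000198) and -1.12 ± 0.25 for cpt1ab (unadjusted p = 0.000466), but neither passed over all probe sets, where the lowest limma adjusted p for this interaction was 0.99999. Over the list, 11 of the 26 genes had an unadjusted interaction p under 0.05, against 3.64% of all genes. The lists were chosen with earlier results of these data known, and the interaction shares the domoic acid difference, so this is a description.

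**Figure D1:**
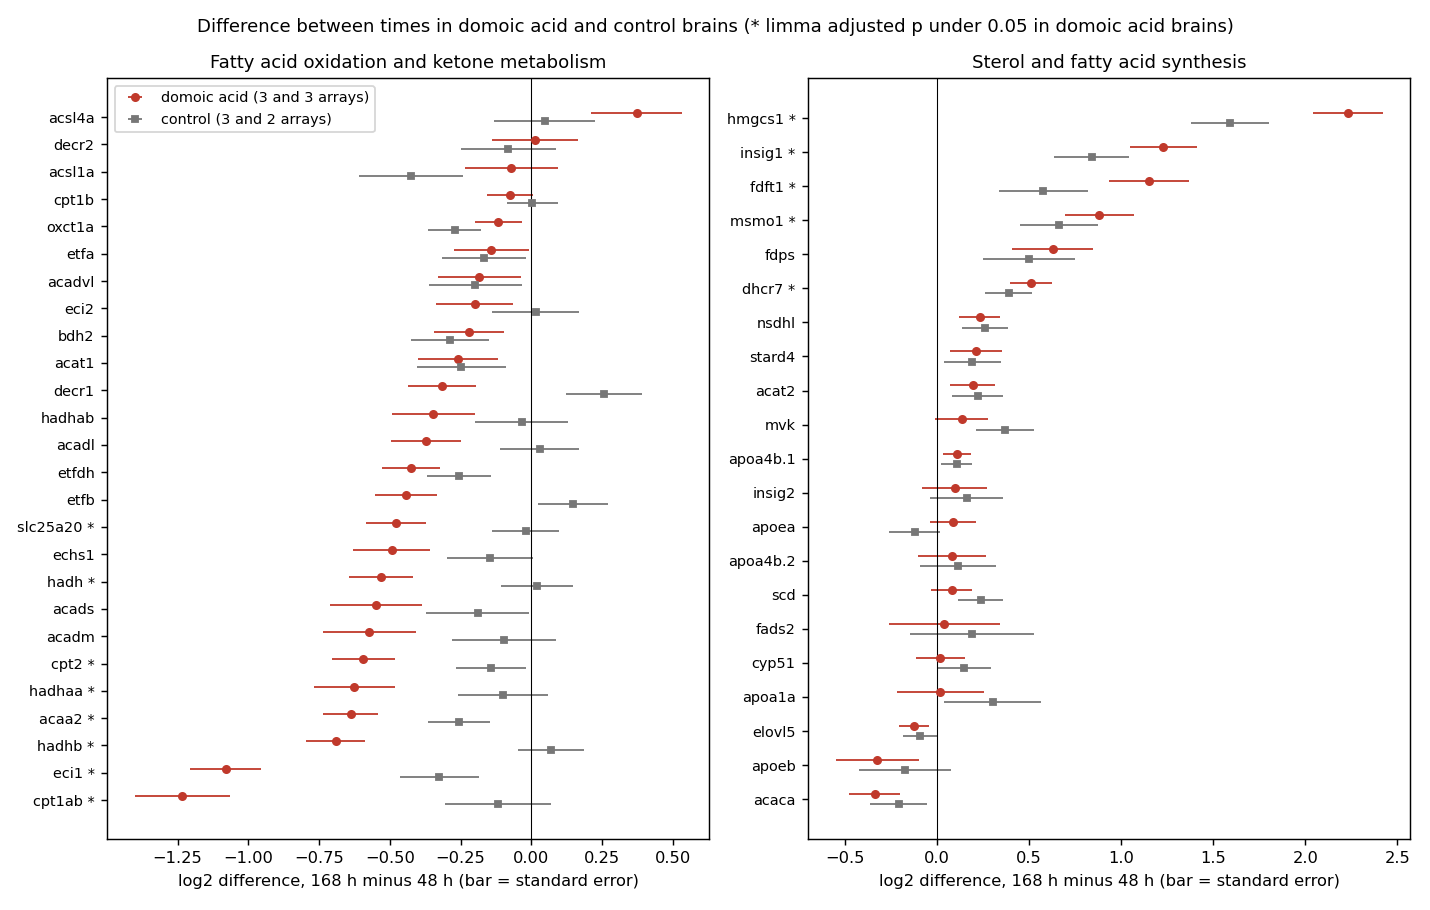
Log2 difference, 168 h minus 48 h, with its SE for the 26 genes of fatty acid oxidation and ketone metabolism (left) and the 21 of sterol and fatty acid synthesis (right), in domoic acid brains (red circles) and control brains (grey squares); stars mark genes past the test in domoic acid brains. The 8 starred oxidation genes lie between -1.23 and -0.48 in domoic acid brains and between -0.33 and 0.07 in control brains, while the 5 starred sterol genes are above 0 in both.

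Genes that steer other fuels changed too. The glycogen-targeting phosphatase subunit gene ppp1r3ca fell from 6.41, 6.01 and 6.07 to 5.01, 5.06 and 5.28. The difference was -1.05 ± 0.14 (limma adjusted p = 0.00248), while its dim second probe set was at 0.03. The 168 h levels of ppp1r3ca lay near those of the blank probe sets (4.94 to 5.11). The gene pfkfb4b, whose product makes or removes the fructose bisphosphate that switches on glycolysis, rose from 9.59, 9.39 and 9.26 to 10.4, 10.6 and 10.6, by 1.12 ± 0.24 (limma adjusted p = 0.0365). It was the single called gene among 26 oxygen-responsive genes, 3.85% of the list against 1.42% of all genes. No gene of this list passed when any 1 of the 6 arrays was left out. Without adjustment, p was under 0.05 for 3 higher and 3 lower genes of the list, where 3.79% of all genes were higher and 9.95% lower. Differences on the list ran from -1.09 to 1.12. Other genes of oxygen response did not pass: egln3, a prolyl hydroxylase gene, was at -0.21 (limma adjusted p = 0.702), igfbp1a at 0.09 and the cytochrome oxidase isoform gene cox4i1l at -0.06. In control brains egln3 fell by 0.88 ± 0.16 (limma adjusted p = 0.0416) and cox4i1l was at -0.76 ± 0.15 (limma adjusted p = 0.0529). Chosen after its values were seen, gpd1b, a glycerol phosphate dehydrogenase gene, fell by 0.72 ± 0.12 and the apolipoprotein gene apoc1 by 0.99 ± 0.17. None of 56 genes of glycolysis and the citric acid cycle passed, although 11 lower (against 9.95% of all genes) and 1 higher had an unadjusted p under 0.05; mdh2, the mitochondrial malate dehydrogenase, was at -0.58 (limma adjusted p = 0.0977).

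Subunits of the respiratory chain had mostly negative differences without a single call. Of 31 complex I genes 29 had a negative difference, and of 43 genes of complexes II to V 36 did, with list medians of -0.19 and -0.22 against 0.05 and 0.06 in control brains. Without adjustment, p was under 0.05 for 8 lower complex I genes and 15 lower genes of complexes II to V, and for none that was higher, where 9.95% of all genes were lower at that level. The ATP synthase subunit gene atp5mc3a (-0.41, limma adjusted p = 0.0710) and the succinate dehydrogenase subunit gene sdhc (-0.43, limma adjusted p = 0.0790) came nearest to the threshold. These medians depended on the scaling: they were -0.12 and -0.10 after quantile normalization and -0.10 and -0.13 after cyclic loess.

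Cortisol, the stress hormone of fish, acts through the glucocorticoid receptor, and 2 genes of this response were higher at 168 h in domoic acid brains. Of 26 glucocorticoid response genes, 2 rose and none fell, with 19 positive differences and a median of 0.12. That is 7.69% of the list against 0.421% of all genes called higher. The gene fkbp5, which encodes a co-chaperone that dampens the glucocorticoid receptor and is itself induced by it, had levels of 8.84, 8.52 and 9.19 at 48 h and 10.8, 10.8 and 10.9 at 168 h. The rise of 1.98 ± 0.44, or 3.96-fold, passed the test (limma adjusted p = 0.0414), and every 168 h array lay above every 48 h array. The gene hsd11b2, whose enzyme inactivates cortisol, was at 5.21, 5.17 and 5.47 at 48 h, near the level of the blank probe sets. It reached 6.17, 6.13 and 6.65 at 168 h, a rise of 1.04 ± 0.18 (limma adjusted p = 0.0113). The receptor target klf9 showed the same pattern without passing, at 9.85, 9.45 and 9.66 and then 11.53, 10.99 and 11.24 (1.60 ± 0.40, limma adjusted p = 0.0759).

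In the control groups fkbp5 was already high at 48 h. The 5 control arrays of 48 h and 168 h held fkbp5 at 10.2 to 11.4, so the low values were those of the domoic acid arrays at 48 h, and the control difference was 0.21 ± 0.49. On the 24 h arrays fkbp5 was at 8.82, 7.78 and 7.44 in control brains and at 8.35, 10.3 and 9.57 in domoic acid brains, so the control arrays of 24 h all lay below those of 48 h. For hsd11b2 the control arrays lay at 6.40 and 5.70 at 48 h and at 5.65 to 6.13 at 168 h, with overlap and a difference of -0.12 ± 0.20. The time differences of the treatments differed by 1.78 ± 0.65 for fkbp5 (unadjusted p = 0.0157) and by 1.16 ± 0.27 for hsd11b2 (unadjusted p = 0.000563), neither past the threshold over all probe sets. Leaving out any 1 of the 6 arrays left 1 call or none on the list, and the spike-in covariate left 1.

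Among 36 clock genes only cry4, a cryptochrome gene, passed, with a rise of 0.66 ± 0.13 (limma adjusted p = 0.0265). That is 2.78% of the list against 1.42% of all genes. Without adjustment, p was under 0.05 for 5 higher and 7 lower clock genes, where 3.79% of all genes were higher and 9.95% lower. Differences on the list ran from -1.33 to 1.26, with a median of 0.00. At an adjusted p under 0.10, 3 higher and 4 lower genes passed. No clock gene passed when any 1 of the 6 arrays was left out. In control brains cry4 differed by 0.65, without passing (limma adjusted p = 0.0891).

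Part of the microglial and leukocyte genes fell by 168 h. Of 31 measured markers 29 had a negative difference, 6 fell and none rose, which is 19.4% of the list against 1.42% of all genes. The list median was -0.42, and the mean level over the list was 6.91 to 7.01 on the 48 h arrays and 6.50 to 6.59 on the 168 h arrays, without overlap. Some lists with no call separated between the times as well, among them myelin genes (8.97 to 9.09 and 8.77 to 8.91), while others overlapped. In bulk tissue, fewer cells of a type and less RNA per cell cannot be told apart. In control brains the mean level over the list was 6.68 to 6.86 at 48 h and 6.50 to 6.61 at 168 h, also without overlap. The list median there was -0.18, with 25 of the 31 markers lower and 1 past the test. The unadjusted interaction p was under 0.05 for 3 of the 31 markers, against 3.64% of all genes. The count of calls was 1 to 5 when any 1 of the 6 arrays was left out, 2 when the fit held the spike-in level and 12 without the first domoic acid array of 24 h.

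The called markers included 3 genes of antigen presentation. For cd74b, an invariant chain of MHC class II, the levels were 9.54, 9.58 and 9.50 at 48 h and 8.83, 8.35 and 8.77 at 168 h, a fall of 0.89 ± 0.14 (limma adjusted p = 0.00512). Its paralog cd74a went from 11.5, 11.4 and 11.5 to 10.7, 10.8 and 10.9, a fall of 0.66 ± 0.15. The MHC class I light chain gene b2m stood at 10.4 on all 3 arrays of 48 h and at 9.70, 9.69 and 9.70 on those of 168 h, a fall of 0.68 ± 0.14 (limma adjusted p = 0.0315). The 3 arrays of each time were nearly identical for b2m, and it counts on the list of innate immunity as well.

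The collagenase gene mmp13a showed the largest fall of the list. Its levels were 7.64, 7.36 and 8.57 at 48 h and 6.02, 6.19 and 6.20 at 168 h, a difference of -1.72 ± 0.30 or 3.30-fold (limma adjusted p = 0.0114), and 1 array of 48 h stood well above the other two. The other metalloproteinase on the list, mmp9, was at -0.84 ± 0.20 (limma adjusted p = 0.0651). The lysosomal membrane gene laptm5 fell by 0.71 ± 0.16 and the L-plastin gene lcp1, which bundles actin in leukocytes, by 0.70 ± 0.16. The microglial receptor gene csf1ra gave no usable signal, since its levels of 4.76 to 5.05 were those of the blank probe sets.

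More immune genes fell that were on no marker list and were picked after their values were seen: the macrophage lysosomal gene cd68 by 0.55 ± 0.11, the phosphatase gene ptpn6 (SHP-1) by 0.55 ± 0.12, the Arp2/3 subunit gene arpc1b by 0.76 ± 0.13, and alox5ap, which serves leukotriene synthesis, by 0.45 ± 0.09. Among 40 genes of cytokines, interferon and innate immunity, b2m was the single call (2.5% against 1.42% of all genes), with 28 negative differences. The interferon factor gene irf9 (-0.45, limma adjusted p = 0.0678), the complement gene c4b (-0.61, limma adjusted p = 0.0622) and the chemokine gene ccl19a.1 (-0.66, limma adjusted p = 0.0622) lay close to the threshold. The chemokine gene cxcl12a gave a called probe set (-0.90) and a brighter one that did not pass (-0.48, limma adjusted p = 0.378).

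Most glial genes had negative differences, with few calls. Of 21 markers of radial glia, the stem-like astroglia of the fish brain, 19 had a negative difference and 2 fell, both of them prostaglandin D synthase genes whose products are abundant secreted proteins of the brain. That is 9.52% of the list against 1.42% of all genes. Levels of ptgdsb.2 were 11.95, 11.97 and 12.01 at 48 h and 11.14, 11.05 and 11.09 at 168 h, a fall of 0.89 ± 0.12 (limma adjusted p = 0.00248). Those of ptgdsb.1 were 9.69, 9.59 and 9.67 and then 7.86, 8.52 and 8.67, a fall of 1.30 ± 0.18 (limma adjusted p = 0.00248). The genes are close copies on which probe signal may be shared, so the split between them is uncertain. In control brains ptgdsb.2 fell as well, by 0.75 ± 0.13 (limma adjusted p = 0.0352).

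The intermediate filament gene gfap (-0.33, limma adjusted p = 0.353), aromatase cyp19a1b (-0.31, limma adjusted p = 0.481) and the glutamate transporter gene slc1a2b (-0.44, limma adjusted p = 0.217) did not pass. The radial glial median of -0.31, which stood beside -0.22 in control brains, became -0.18 after quantile normalization or cyclic loess. None of 9 myelin and oligodendrocyte genes passed; the transcription factor gene olig2 came nearest (-0.78, limma adjusted p = 0.0612).

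No gene for the receptors that domoic acid acts on passed the test. All 5 measured ionotropic glutamate receptor genes lay between -0.28 and 0.23. The kainate receptor subunit gene grik6 was at -0.28 (limma adjusted p = 0.446) and grik1a at 0.06. The NMDA receptor subunit gene grin1a was at -0.23 (limma adjusted p = 0.636), and the AMPA receptor subunit gene gria2b at -0.20 (limma adjusted p = 0.943). None of the 8 genes of GABA signalling, 32 of synaptic vesicles, 23 of ion channels and 51 of calcium signalling passed either; 6 lower vesicle genes had an unadjusted p under 0.05, among them the synapsin gene syn1 (-0.39, limma adjusted p = 0.0889).

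Genes that neurons switch on within minutes of firing showed no call among 41, with a list median of 0.02 against 0.15 in control brains. Without adjustment, p was under 0.05 for 7 higher and 3 lower genes, where 3.79% of all genes were higher and 9.95% lower. The unadjusted interaction p was under 0.05 for 8 of the 41, against 3.64% of all genes. The gene fosab was at 8.41, 8.57 and 9.06 at 48 h and at 7.81, 8.76 and 8.64 at 168 h, with overlapping arrays and a difference of -0.27 ± 0.27. The genes junbb (0.07), nr4a1 (0.35) and bdnf, a neurotrophin gene (0.05), did not pass either. In control brains nr4a1 rose by 1.23 ± 0.23 between the times (limma adjusted p = 0.0484), from 5.67 and 5.91 to between 6.78 and 7.17, while domoic acid brains already stood at 6.36 to 6.69 at 48 h.

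Of 127 genes of splicing and RNA binding 2 rose and none fell, with a median of 0.08. This share of 1.57% is near the 1.42% of all genes called in either direction and above the 0.421% called higher. Without adjustment, p was under 0.05 for 12 higher and 6 lower genes, where 3.79% of all genes were higher and 9.95% lower. No gene of the list passed without replicate 2 of 48 h or without replicate 2 of 168 h. The splicing regulator gene hnrnpa1b went from 9.78, 9.42 and 9.50 to 10.9, 10.9 and 10.3, a rise of 1.14 ± 0.19 (limma adjusted p = 0.00974). The related hnrnpl rose from 6.55, 6.51 and 6.55 to 7.22, 7.44 and 7.44, by 0.83 ± 0.14 (limma adjusted p = 0.0108), while its control difference was 0.00 ± 0.16. The gene myef2, which encodes an RNA- and DNA-binding repressor, rose by 1.08 ± 0.15, and in control brains by 0.998 ± 0.16. Chosen after its values were seen, the paraspeckle gene sfpq rose by 0.67 ± 0.11.

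The histone H3 lysine methyltransferase gene ezh2, which encodes a catalytic subunit of a Polycomb repressive complex, went from 7.12, 7.42 and 7.06 to 7.84, 8.07 and 7.98. This rise of 0.76 ± 0.13 (limma adjusted p = 0.0115) was the single call among 48 chromatin genes, 2.08% of the list against 1.42% of all genes. The control difference was 0.69 ± 0.15. The 2 dimmer probe sets of ezh2, at 4.43 to 5.10, did not pass.

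Among transcription factors of the forebrain, foxg1b had levels of 5.58, 5.43 and 6.06 at 48 h, the lowest near the level of the blank probe sets. At 168 h they were 7.55, 7.38 and 7.50. The rise of 1.78 ± 0.24, or 3.45-fold, was exceeded among genes with a symbol only by hmgcs1 and fkbp5 (limma adjusted p = 0.00248). The pallial factor gene tbr1b, which marks excitatory neurons of the forebrain, moved the other way, from 9.17, 9.30 and 9.11 to 8.07, 8.30 and 7.78 (-1.15 ± 0.18, limma adjusted p = 0.00746). In control brains foxg1b was at 7.26 and 6.33 at 48 h and 7.18 to 7.46 at 168 h, and tbr1b at 8.73 and 8.18 and then at 8.12 to 8.19. On the list of 126 patterning factors 2 fell, tbr1b and the neural progenitor gene sox1a (-0.43 ± 0.10), and none rose. This share of 1.59% is near the 1.42% of all genes, and foxg1b was on no list. A second probe set of sox1a, at 7.44 to 7.66 on the 6 arrays, showed no difference (0.05 ± 0.13). Another, dim one was at -0.13 and did not pass.

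Protein quality control showed few and opposed changes. The cytosolic chaperone gene hsp90aa1.2 rose from 9.30, 9.07 and 9.31 to 10.3, 10.4 and 10.5, by 1.17 ± 0.14 (limma adjusted p = 0.00123). It was the single call among 64 chaperone genes, 1.56% of the list against 1.42% of all genes. Its control difference was as large, 1.26 ± 0.15 (limma adjusted p = 0.00863). A second probe set of the same gene was at 0.83 (limma adjusted p = 0.445). Of 93 ubiquitin pathway genes, the deubiquitinase gene usp2a rose by 0.84 ± 0.13, and the ligase genes fbxo25 and rnf11a fell by 1.40 ± 0.21 and 0.69 ± 0.15. These 3 calls are 3.23% of the list, against 1.42% of all genes. Levels of fbxo25 were 6.92, 6.54 and 6.66 at 48 h and 5.20, 5.36 and 5.37 at 168 h, with a wide gap between the times. Those of 168 h were near the level of the blank probe sets, and the dim second probe set of fbxo25 was at 0.00.

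Of 41 proteasome genes 32 had a negative difference and psmd5, an assembly chaperone of the proteasome, fell by 0.45 ± 0.10 (limma adjusted p = 0.0365). This single call is 2.44% of the list, against 1.42% of all genes, and it was lost when any 1 of the 6 arrays was left out. The proteasome median was -0.20 here, 0.00 in control brains, and -0.12 in domoic acid brains after cyclic loess. None of 71 ribosomal protein genes passed, with a median of -0.12 that became -0.02 after cyclic loess. Among 63 translation factors eif4enif1, which carries eIF4E into the nucleus and represses translation, rose by 0.82 ± 0.17. That single call is 1.59% of its list, near the 1.42% of all genes, and it too was lost when any 1 of the 6 arrays was left out.

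Of 34 oxidative stress genes and Nrf2 targets 27 had a negative difference, 2 fell and none rose, with a median of -0.21 against -0.04 in control brains. The calls are 5.88% of the list against 1.42% of all genes; none passed with the spike-in level in the fit, and 1 or none when any 1 of the 6 arrays was left out. The superoxide dismutase gene sod1 went from 10.7 on all 3 arrays of 48 h to 10.3, 9.92 and 10.1 (-0.58 ± 0.13, limma adjusted p = 0.0479), and the ferritin heavy chain-like gene fthl27 fell by 0.54 ± 0.11. The glutathione peroxidase gene gpx1a (-0.62, limma adjusted p = 0.0667) and the autophagy receptor gene sqstm1 (-0.60, limma adjusted p = 0.0585) lay close to the threshold. Outside the lists selenop, which encodes a selenium transport protein, fell from 11.29, 10.85 and 11.02 to 9.96, 9.41 and 9.70, by 1.36 ± 0.31 (limma adjusted p = 0.0443).

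The largest fall of a named gene was that of rpe65a, which encodes the retinoid isomerase of the retinal pigment epithelium. Levels of rpe65a were 8.51, 9.59 and 9.60 at 48 h and 6.91, 7.42 and 6.30 at 168 h, a difference of -2.36 ± 0.38 or 5.13-fold (limma adjusted p = 0.00746). Its second probe set fell by 0.85 ± 0.17. On the first probe set the 5 control arrays lay between 7.85 and 8.82, in the middle of the domoic acid range. On the second they lay at 5.50 to 5.83, below the domoic acid arrays of 48 h (6.17 to 6.48). The domoic acid arrays of 168 h were at 5.35 to 5.61 there. The gene rpe65a was the single call among 53 genes of retina, lens and pineal, 1.89% of the list against 1.42% of all genes. The list had 32 negative differences and a median of -0.04. Its mean level was 5.49 to 5.77 at 48 h and 5.41 to 5.54 at 168 h. The part of tissue from around the eye in the rpe65a result was not tested. No erythroid, endothelial, muscle, skin or pituitary gene on the lists passed.

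**Figure D2:**
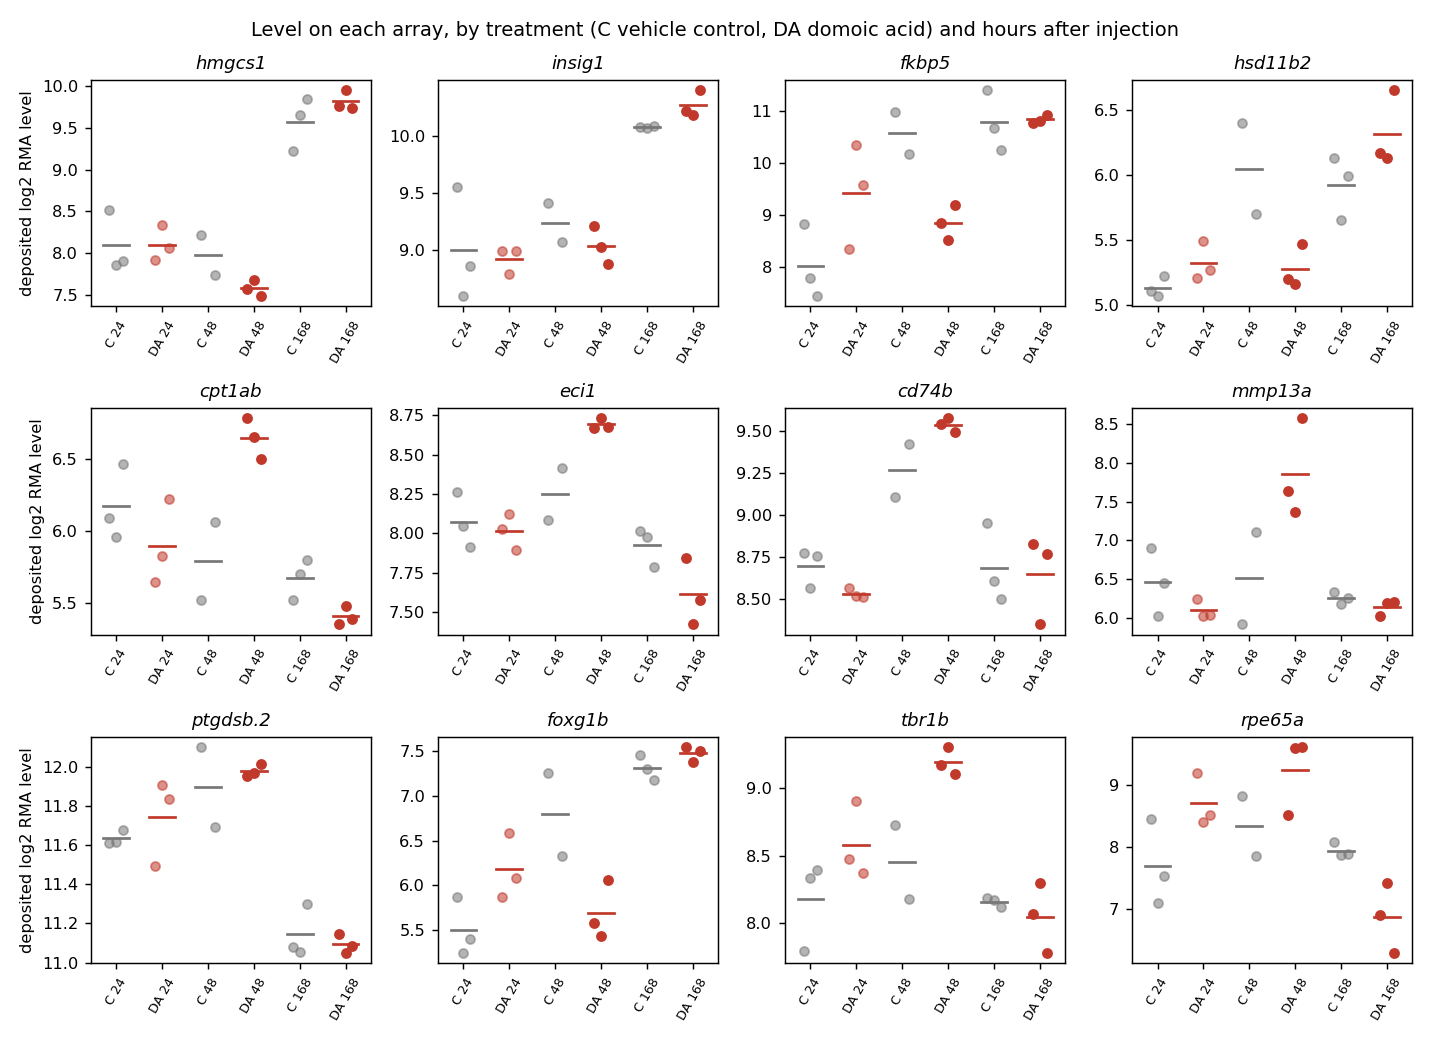
Deposited log2 level of 12 genes on every array (points), grouped by treatment and hours after injection, with the group mean (line); vertical scales differ between panels. In domoic acid brains the 3 arrays of 168 h do not overlap the 3 of 48 h in any panel. For hmgcs1, insig1 and ptgdsb.2 the control groups separate in the same way. For fkbp5, hsd11b2, cpt1ab, mmp13a, foxg1b and tbr1b the control arrays of 48 h and 168 h overlap.

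Of the 125 genes that passed, 85 were on no list. Chosen after its values were seen, klf11a, a Krüppel-like transcription factor gene, rose from 10.3, 10.4 and 9.85 to 11.2, 11.2 and 10.9 (0.91 ± 0.13, limma adjusted p = 0.00493), and by 1.08 ± 0.15 in control brains. The largest rise with a gene name among these after foxg1b was that of pik3r3a, a regulatory subunit gene of PI3 kinase, from 6.20, 5.86 and 5.80 to 7.18, 7.56 and 7.79 (1.56 ± 0.27, limma adjusted p = 0.0122). The ABC-family gene abcf2a rose by 1.31 ± 0.26, the kinase gene mapk4 by 0.94 ± 0.13 and coq10a, which encodes a coenzyme Q-binding protein, by 0.92 ± 0.20. The largest difference of all belonged to a probe set with no gene name in the annotation, at 5.58, 5.83 and 6.09 at 48 h and 9.23, 9.46 and 8.13 at 168 h (3.101 ± 0.54, 8.58-fold, limma adjusted p = 0.0115).

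Falls outside the lists included crtac1a, which encodes a secreted matrix protein, from 9.95, 9.69 and 10.4 to 7.98, 8.47 and 8.77 (-1.59 ± 0.30, limma adjusted p = 0.0171). The sulfate transporter gene slc13a1 fell by 1.25 ± 0.27 and lgals3bp.1, a galectin-binding protein gene, by 1.16 ± 0.21. The genes tcp11l2 (-1.11 ± 0.19) and zgc:158423 (-1.08 ± 0.15) fell too. The autoantigen gene ica1 (0.04 ± 0.23) and the vesicle-tethering gene vps52 (-0.39 ± 0.16, limma adjusted p = 0.329) did not pass. On the list of neuronal cytoskeleton and motors the single call (2.13% of the list against 1.42% of all genes) was kif20a, a mitotic kinesin gene. It fell from 12.2, 11.8 and 12.0 to 10.9, 11.1 and 10.9 (-1.09 ± 0.16, limma adjusted p = 0.00493). None of 57 genes of cell cycle and DNA replication passed. A second, dim probe set of kif20a, at 5.42 to 5.59 on the 6 arrays and so far below the called one, was at 0.09. Which of the 2 follows the kif20a transcript was not tested.

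**Figure D3:**
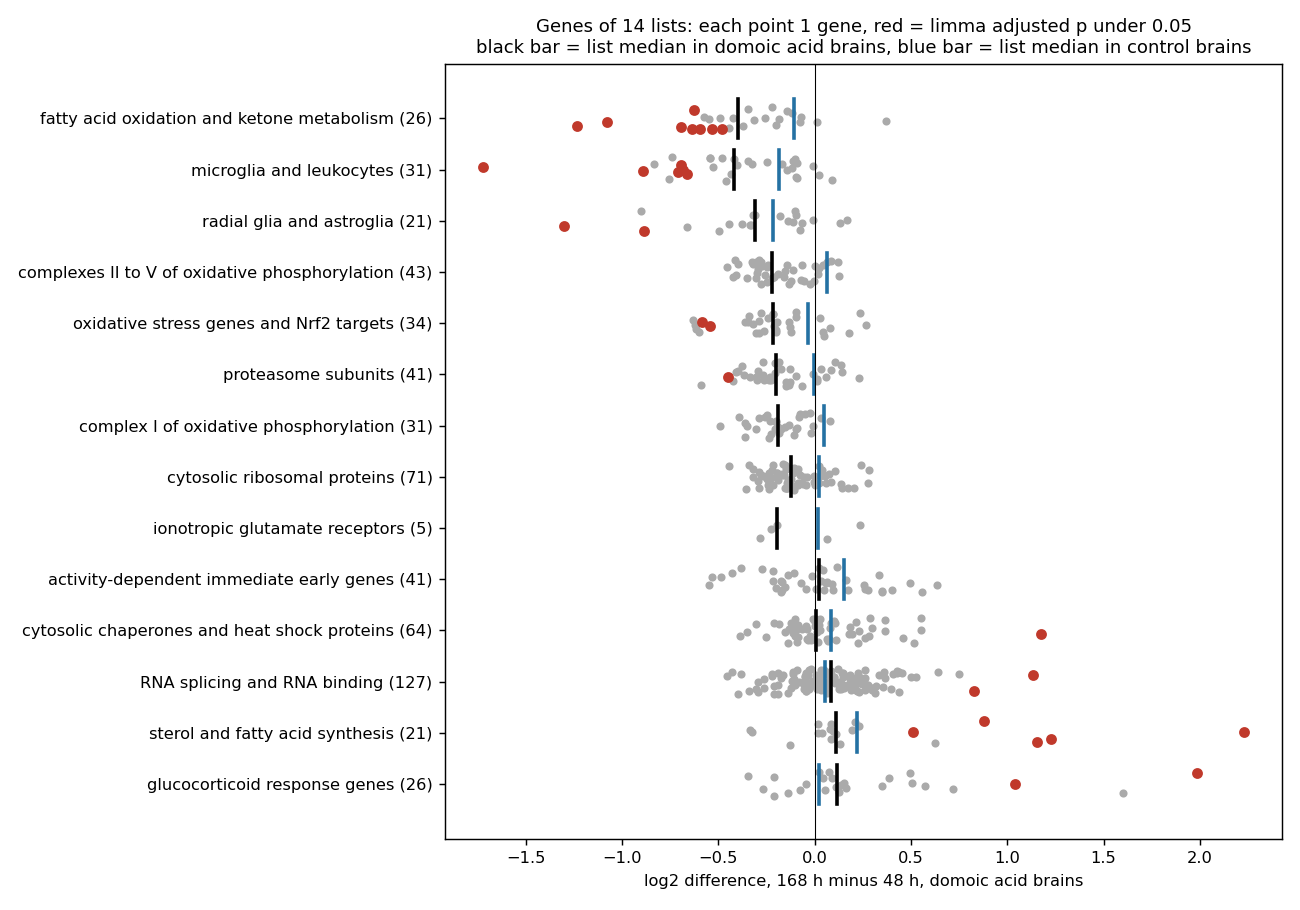
Log2 difference, 168 h minus 48 h, in domoic acid brains for the genes of 14 lists (1 point per gene, list size in parentheses), with genes past the limma test in red, the list median as a black bar and the median of the same genes in control brains as a blue bar. Fatty acid oxidation (median -0.40) and microglia and leukocytes (-0.42) hold 8 and 6 genes past the test, all lower, and the 5 sterol genes past the test are all higher.

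The vehicle-injected fish were compared between the same times. In control brains 30 probe sets passed the test (0.194%), 14 higher (0.0903%) and 16 lower (0.103%), and 1668 had an unadjusted p under 0.05 (10.8%). Of the 161 probe sets called in domoic acid brains, 154 had the same sign in control brains (95.7%), against 64.2% of all probe sets, and 16 were called in both. Those with a gene name, 11 in all, were hmgcs1, hsp90aa1.2, mid1ip1b, klf11a, sfpq, myef2, mapk4, ptgdsb.2, calcoco1a, rangrf and anxa11b. The test of the treatment difference itself gave no call among the 15502 probe sets (lowest limma adjusted p = 0.99999), and 481 had an unadjusted p under 0.05 (3.1%). By unadjusted p the genes at the top of this test were hadhb, cpt1ab and lig1, a DNA ligase gene, on one side, and dynll2b, a dynein light chain gene, LOC100005423 and hsd11b2 on the other. For dynll2b the control arrays went from 11.4 and 11.5 at 48 h to 10.8 on all 3 arrays of 168 h, a fall of 0.63 ± 0.10, while the domoic acid arrays lay between 11.03 and 11.28 at both times (0.03 ± 0.09). Differences for lig1 were -0.27 ± 0.09 in domoic acid brains and 0.26 ± 0.10 in control brains, and those for LOC100005423 were 0.15 ± 0.09 and -0.45 ± 0.10. Of the 161 called probe sets, 49 had an unadjusted interaction p under 0.05; since they were chosen for a large difference in domoic acid brains, this is a description.

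**Figure D4:**
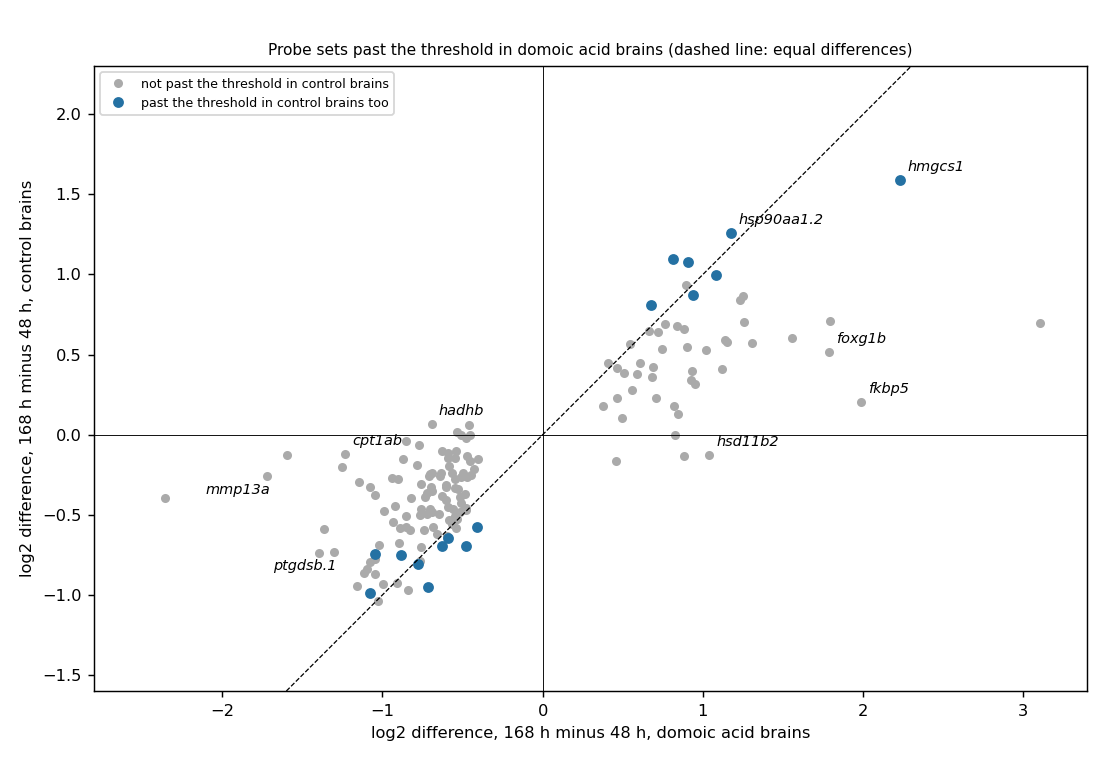
Log2 difference, 168 h minus 48 h, in domoic acid brains (horizontal) and in control brains (vertical) for the 161 probe sets past the test in domoic acid brains, with the 16 past it in control brains too in blue and the line of equal differences dashed. Of the 161 points 154 lie in the quadrants of equal sign, and hsp90aa1.2 lies near the line while fkbp5, hsd11b2 and hadhb lie near a control difference of 0.

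The domoic acid arrays of 24 h were placed against both ends of the comparison. For 101 of the 161 called probe sets the 24 h mean lay nearer to the 168 h mean, and for 60 nearer to the 48 h mean, against 43.7% nearer to 48 h among all probe sets. As a set, the called probe sets were thus split not far from all probe sets. The 5 called sterol genes, fkbp5 and hsd11b2 stood nearer to 48 h: hmgcs1 was at 7.92, 8.34 and 8.06 on the 24 h arrays. Most called genes of fatty acid oxidation and all 6 of the microglial list stood nearer to 168 h, with cd74b at 8.56, 8.51 and 8.51 and eci1 at 8.03, 8.12 and 7.89 on the 24 h arrays. The exception among the oxidation genes was hadhaa. The first domoic acid array of 24 h had blank probe sets at 5.74, above the 4.94 to 5.18 of the others. Without it the counts were 98 and 63, against 47.2% nearer to 48 h among all probe sets.

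The number of calls rests on few arrays. Leaving out a single array lowered it from 161 to 62, 55 or 54 without replicate 1, 2 or 3 of 48 h, and to 59, 35 or 107 without replicate 1, 2 or 3 of 168 h. Fitting only the 6 domoic acid arrays raised it to 647.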

How the data were processed

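RNA from pooled zebrafish brains was measured on 17 Affymetrix zebrafish arrays, 3 in each of 5 groups and 2 in the control group of 48 h. The values used are log2 levels per probe set as deposited by the authors; oligo, RMA and limma are named in the submitters' processing notes, without versions. Of 15617 probe sets, 115 array controls were left out and 15502 tested. Platform annotation gave 10795 probe sets 1 gene symbol, 135 several and 4572 none; 10711 symbols were updated by Entrez identifier to RefSeq names (assembly GRCz12tu). Each of 8793 genes was represented by its probe set with the highest mean over the 17 arrays.

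Differences came from 1 limma fit (version 3.58.1, R 4.3.3) of group means on all 17 arrays, with 11 residual degrees of freedom and Benjamini-Hochberg adjustment over 15502 probe sets. The fit was tested on simulated data. The precision is set by the number of arrays: the median SE was 0.130 for domoic acid, 0.146 for control brains and 0.196 for the treatment difference. Each array is a pool, and p-values measure the spread between pools.

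Named genes were, per direction, up to 15 with the largest change past the test without overlap, up to 6 per list by p (or 2 per direction where none passed), a short list of genes always named, and 3 per direction for the treatment difference; the 40 genes named outside this rule were chosen after their values were seen. The members and the 39 gene lists were chosen with earlier results of these data known; 14 genes matched by a name pattern but not of the kind were dropped. The labels do not say whether equal replicate numbers pair the samples, which were treated as unpaired. Deviations of equally numbered arrays correlated at -0.092, 0.165 and -0.110. Of unlike numbers, replicate 1 of 48 h with 3 of 168 h gave 0.181, 3 with 1 gave 0.139, and the rest were negative. Alternatives covered scaling, filters, weights, arrays in the fit, covariates, thresholds and leaving out each array. No sequence was printed.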

Additional observations from a re-analysis of the deposited data

Results flagged for a closer look

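A probe set with no single gene name in the annotation passed the test in domoic acid brains with a rise of 0.45, while its control arrays of 168 h all lay below those of 48 h. Of the 161 called probe sets, 154 had the same sign in control brains, and among the rest this was the one whose control groups did not overlap. Its levels were 7.40, 7.14 and 7.22 on the domoic acid arrays of 48 h and 7.79, 7.73 and 7.61 on those of 168 h. In control brains it was at 7.49 and 7.51 at 48 h and at 7.35, 7.47 and 7.19 at 168 h, a difference of -0.16 that did not pass (limma adjusted p = 0.677). The gap between the control groups was narrow, from 7.47 to 7.49. Separate groups are not rare: in domoic acid brains 23.4% of all probe sets had no overlap between the times. For the flagged probe set the limma test of the treatment difference gave an unadjusted p of 0.00098 and an adjusted p of 0.99999 over all probe sets.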

How the results depend on the processing

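All 79 called genes named in the text kept their direction under every alternative fit that held them, and 14 of them passed under each such fit. For cpt1ab, fbxo25 and ppp1r3ca, these were 23 of 24 alternatives, since a level filter left them out. The kept direction was in large part fixed in advance. Filters, thresholds, variance settings, the replicate block and changes in the other groups' arrays leave the difference itself as it was. Since the called genes had no overlap between the times, leaving out or weighting arrays could not turn the sign. Only the changes of scaling and the covariates could have done so. The count of 161 probe sets in domoic acid brains became 105 after median centring, 1747 with array weights, 647 with only the groups compared, 36 at an adjusted p under 0.01, 375 under 0.10, 38 at 2-fold or more and 407 with the level of blank probe sets in the fit. With changes in the arrays chosen after seeing the data, it was 411 without the first domoic acid array of 24 h, 558 without both doubted arrays of 24 h and 510 without any array of 24 h. Quantile normalization gave 192 (81 higher, 111 lower) and cyclic loess 209 (90 higher, 119 lower). The count ranged from 35 to 107 over the fits that left out 1 array. A replicate block gave 143. The labels do not say whether equal replicate numbers pair the samples, and same-numbered arrays did not correlate best with each other throughout. In control brains the count of 30 became 12 after median centring, 62 with the spike-in covariate, and 0 to 14 when 1 array was left out, with 0 lacking the first control array of 48 h; the replicate block gave 29. The treatment difference had 0 calls by limma in every fit, against 481 probe sets at an unadjusted p under 0.05. The cause of these shifts was not tested.

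Genes near 0 turned sign. For bdnf the difference was -0.073 with array weights, -0.18 with the spike-in covariate and -0.14 to 0.20 when 1 array was left out, and for ica1 it was -0.13, -0.060 and -0.20 to 0.26 in the same order. The value for cox4i1l was 0.015 with the spike-in covariate and lay between -0.14 and 0.0066 when 1 array was left out; fosab then lay between -0.45 and 0.026 and dynll2b between -0.019 and 0.11. With 3 arrays a group, the typical SE of 0.130 limits what can be called.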

Other observations

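Genes of selective autophagy, the delivery of cargo to lysosomes, were among those lower at 168 h in domoic acid brains; they were on no list and were picked after their values were seen. The receptor gene optn had levels of 7.87, 7.80 and 7.69 at 48 h and 7.34, 7.21 and 7.37 at 168 h, a fall of 0.48 ± 0.10 (SE; limma adjusted p = 0.0343). The receptor genes calcoco1a and nbr1a fell by 0.63 ± 0.11 and 0.52 ± 0.11, and wdr45, which serves autophagosome formation, by 0.77 ± 0.17. In control brains calcoco1a fell by 0.69 ± 0.13 (limma adjusted p = 0.0416), nbr1a was at -0.48 ± 0.12 and optn at -0.37 ± 0.11, while wdr45 was at -0.07 ± 0.19.

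Beside rpe65a, other genes that handle retinoids or related lipids were lower, again picked after their values were seen. The plasma retinol carrier gene rbp4 went from 10.2, 10.2 and 10.6 to 9.25, 9.86 and 9.51, a fall of 0.78 ± 0.16 (limma adjusted p = 0.0274). The retinol dehydrogenase family genes dhrs9 and sdr16c5a fell by 0.46 ± 0.09 and 0.57 ± 0.10, and cyp27c1, which makes the retinal of long-wavelength vision in zebrafish, by 0.51 ± 0.09. In control brains rbp4 was at -0.19 ± 0.18 and dhrs9 at 0.06 ± 0.10.

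Several pairs of related genes were among the falls, again picked after their values were seen. The zinc finger genes znf395a and znf395b fell by 1.03 ± 0.19 and 1.02 ± 0.19, the annexin genes anxa11a and anxa11b by 0.52 ± 0.11 and 0.41 ± 0.09, and the chromatin protein genes hmgb1a and hmgb3a by 0.48 ± 0.11 and 0.85 ± 0.16. Genes tied to coenzyme Q went opposite ways, with coq8aa, needed for its synthesis, falling by 0.59 ± 0.11 and coq10a rising.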
